A study of Sus scrofa with 9 samples.

Results

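The genes described here encode the enzymes that remove superoxide and peroxides: the superoxide dismutases SOD1 and SOD2, the peroxiredoxins PRDX1 to PRDX6, catalase (CAT) and the glutathione peroxidase GPX4. They were taken by symbol, and all 10 were found among the 23507 genes of the deposited count table. Polyadenylated RNA had been sequenced from wild-type pig oocytes arrested at metaphase II (MII), ready for fertilisation. There were 3 groups of 3 libraries. Control oocytes matured at 38.5 °C. Heat stress oocytes were kept at 41.5 °C for 24 h from the germinal vesicle stage, the immature stage, and then at 38.5 °C until MII. A further heated group was given L-Asp in the same period, at 0.5, 1.0 or 1.5 mmol/L, with no statement of which was sequenced. Maturation medium in every group held 0.6 mmol/L cysteine, an amino acid from which glutathione is made. Oocytes were collected with their cumulus cells, with 25 oocytes named for a group. How these were divided among libraries, and whether libraries came from separate animals, is not stated, so each p reflects only how far these libraries differ, which may be technical.

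Superoxide, a by-product of mitochondrial respiration, is turned into hydrogen peroxide by superoxide dismutases. Peroxiredoxins then reduce peroxides with a reactive cysteine that most of them have restored by thioredoxin, catalase breaks hydrogen peroxide down in peroxisomes, and GPX4 uses glutathione to reduce peroxides of membrane lipids. An MII oocyte makes little new RNA and lives on stored messages, many of which are regulated through their poly(A) tails. A longer tail and more RNA cannot be told apart with oligo(dT) priming, nor can fewer cells of a type and less RNA per cell.

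Control libraries held 54965064 to 58361475 counts, heat stress libraries 46198885 to 53327419 and L-Asp libraries 41693395 to 49008681. Pairs of control libraries were far more alike than pairs of heated ones: the squared difference relative to that of independent counts (index of dispersion) had a median of 5.19 to 5.22 for control pairs, 105.7 to 118.7 for heat stress pairs and 79.6 to 84.5 for L-Asp pairs. Their mean therefore stood for control as 1 sample, 7 libraries entered the tests, and the control's spread was taken from the heated groups. Markers of the oocyte (10 of 11 in the table, none at 0 in all controls) summed to 9167 to 9333 CPM for control, 5809 to 6313 for heat stress and 6354 to 8467 with L-Asp. Most of the control's sum was BMP15, at 5174 CPM in the averaged control and 2068 ± 584.3 CPM in heat stress (SD, n = 3). MOS measured 1537 and 643.1 ± 126 CPM in the same groups. The markers lay on both sides of control: 5 of 10 were above 0 in heat stress, among them ZP3, ZP4 and OOEP. BMP15, MOS, GDF9, ZP2 and NLRP5 were below 0, and the median log2 fold change was 0.10. An unadjusted p under 0.05 was met by 3 of 10 for heat stress against control, with none called (edgeR's quasi-likelihood test). For L-Asp against control it was met by 5, again with none called. CPM are counts relative to library size, adjusted by the trimmed mean of M values (TMM). Cumulus and granulosa markers (20 of 26 in the table) summed to 1150 to 1187, 1203 to 1573 and 1180 to 1227 CPM, a sum made up mostly of RGS2 (942.3 CPM in the averaged control). Of the 14 tested, 10 were above 0 in heat stress against control and 4 had an unadjusted p under 0.05, with none called (edgeR's quasi-likelihood test). By the same test 11 were above 0 for L-Asp against control and 5 had an unadjusted p under 0.05, again with none called. GJA1, a gap junction gene, measured 0.806 CPM in the averaged control and 9.16 ± 3.64 CPM in heat stress (SD, n = 3), while GATA4 (85.2 and 70.4 ± 42.9 CPM) and GREM1 (7.17 and 6.80 ± 3.40 CPM) had fold changes below 0. Of the 20, 6 were at 0 in every control library, and PTX3 was at 0 in all 9 libraries. CYP11A1, a steroidogenic enzyme of these cells, measured 0, 0 and 0.116 CPM for control, 5.98, 6.37 and 15.1 after heat stress and 1.32, 7.80 and 0.687 with L-Asp. Theca and stroma markers (9 of 11) summed to 11.5 to 12.7 CPM for control libraries, above both heated groups (4.75 to 10.8 CPM), while blood markers (6 of 10; 0.370 to 5.24 CPM) and endothelial markers (4 of 7; 23.6 to 42.6 CPM) overlapped between groups. Mitochondrially encoded genes took 10.0 to 10.1% of counts in control libraries, 3.09 to 14.5% after heat stress and 5.30 to 9.47% with L-Asp. The part of these differences in the results that follow was not tested.

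The oocyte's message pool for these enzymes was dominated by PRDX2 and SOD1. Per kilobase of transcript, the scale used here to compare genes, PRDX2 stood at 457 CPM per kb in control and SOD1 at 239.5. PRDX1 followed at 17.9, SOD2 at 14.6 and CAT at 11.6 CPM per kb. PRDX6 (4.99), PRDX4 (4.86) and PRDX5 (3.72) formed the next level, and PRDX3 (1.79) and GPX4 (0.686) came last. In control only PRDX6 and PRDX4 had ranges over libraries that overlapped with a neighbour's in this order. On this scale PRDX2 lay at the 99.2nd percentile of all tested genes in control and GPX4 at the 37.3rd. The order of the genes rests on transcript lengths inferred from counts and FPKM (1537 nt for PRDX2, 3027 for SOD1, 4656 for CAT, 5048 for PRDX4). Not divided by length, SOD1 (725 CPM) and PRDX2 (702.3 CPM) had overlapping control ranges. CAT (54.2 CPM) then stood above PRDX1 (36.5 CPM) and SOD2 (23.6 CPM). PRDX4 (24.5 CPM) overlapped with SOD2 and stood well above PRDX6 and PRDX5 (7.17 CPM each), so its place beside them depends on its length. The SOD1 and GPX4 gene models span 11081 and 3468 bp, against 8701 and 2364 bp in RefSeq.

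After heat stress the order at the top was less sharp. PRDX2 averaged 268.4 and SOD1 221 CPM per kb, with overlapping ranges, and GPX4 stood above PRDX3, at 3.01 against 2.38 CPM per kb, again with overlapping ranges. SOD2 and CAT also overlapped there, as did each pair of neighbours from PRDX4 through PRDX6, PRDX5 and GPX4 to PRDX3. In heat with L-Asp, PRDX2 averaged 304.8 and SOD1 218.5 CPM per kb and overlapped as well. PRDX5, GPX4 and PRDX3 were apart in those libraries, at 3.57, 1.71 and 0.887 CPM per kb.

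The balance between the 2 dominant messages is given as a description, with no test. The ratio of PRDX2 to SOD1 per kilobase was 1.92, 1.86 and 1.95 in the control libraries, 0.884, 1.32 and 1.52 in heat stress and 1.30, 1.25 and 1.67 in heat with L-Asp. All 6 heated libraries lay below the control libraries, as PRDX2 itself did. SOD1 had log2 differences from control of -0.12 in heat stress and -0.13 with L-Asp. Of all tested genes, 19% lay below every control library in all heat stress libraries and 19.6% in all L-Asp libraries. How often ratios of other gene pairs do so was not counted. PRDX2 made up 59.9 to 60.7% of the summed CPM per kb of the 10 genes for control, 40.8 to 52.5% after heat stress and 50.2 to 57.2% with L-Asp.

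The other 8 genes together held 7.84, 7.93 and 8.10% of the summed signal in control. Their share was 13.0, 12.8 and 12.9% in heat stress, a narrow range above control, and 11.1, 9.52 and 8.42% in heat with L-Asp, which lay between. CAT alone held 1.405, 1.28 and 3.79% in the heat stress libraries, so the narrow range rests on its high value in replicate 3. The grouping of the 8 genes was made after the values had been seen and carries no test. Taken as sums rather than shares, still relative to library size, the 8 genes gave 59.9 to 60.4 CPM per kb for control. They gave 68.5 to 77.3 after heat stress and 50.5 to 61.8 with L-Asp. Of the heat stress sums CAT gave 7.71, 6.875 and 22.7 CPM per kb. The sum of all 10 was 745.4 to 763.3, 537.2 to 599.3 and 487.8 to 648.8 CPM per kb.

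**Figure D1:**
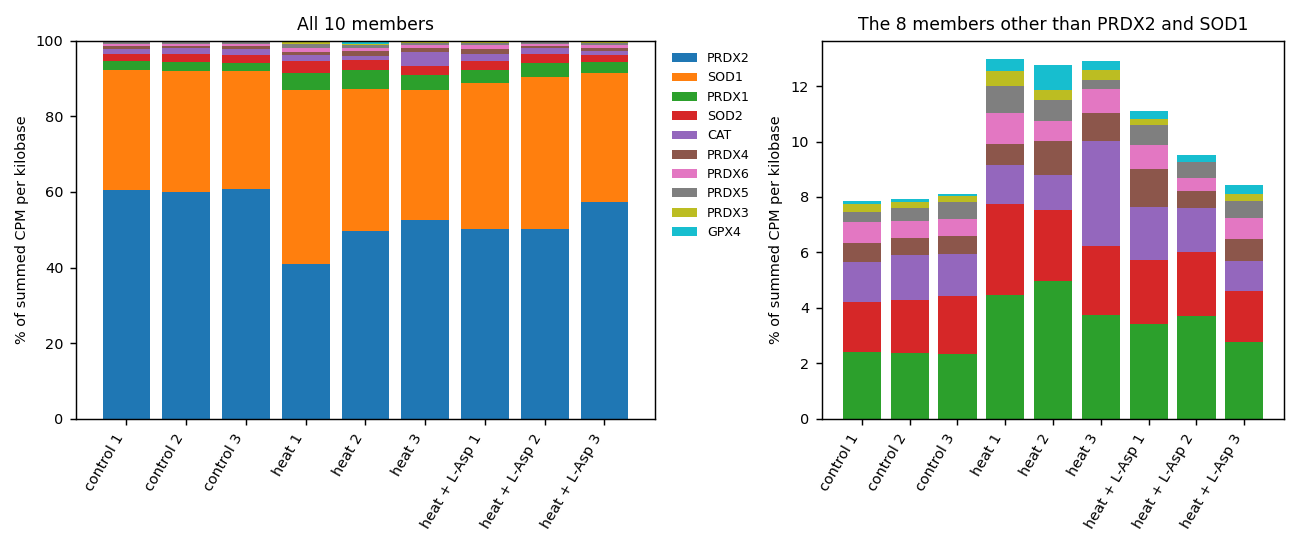
Share of each gene in the summed CPM per kilobase of the 10 genes, in percent, for each of the 9 libraries, with the 8 genes other than PRDX2 and SOD1 enlarged on the right. PRDX2 and SOD1 together fill 91.9 to 92.2% for control, 87.0 to 87.2% after heat stress and 88.9 to 91.6% with L-Asp.

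Heat stress against control asks what heat early in maturation did to these messages. PRDX2 measured less in every heat stress library than in any control library, and PRDX1 and GPX4 measured more. The other 7 had overlapping ranges. Of 15012 genes none passed after Benjamini-Hochberg adjustment (edgeR's quasi-likelihood test, 0% called higher and 0% lower), so none of these differences is called. Without adjustment 2 of the 10, PRDX2 and GPX4, had a p under 0.05, against 3.86% of all tested genes. Of all tested genes, 13.6% lay above every control library in all heat stress libraries, as PRDX1 and GPX4 did, and 19% lay below, as PRDX2 did. Of the 10 fold changes 8 were above 0 (9 when libraries were scaled by their totals alone, which turned SOD1), beside 50.1% of all tested genes. The median log2 fold change of the 10 was 0.09, and that over all tested genes was 0.0016. Leaving out 1 library could turn the sign of SOD2, PRDX5, PRDX6 and CAT.

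SOD1, the copper-zinc dismutase of the cytosol, lies on chromosome 13 at 195326649 to 195337729, forward strand. The table gives such coordinates without naming a build. SOD1 measured 728.6, 742.5 and 703.9 CPM in the control libraries and 767.5, 612.5 and 627.3 CPM in heat stress. The first heat stress library was above and the others below all controls. The mean of the averaged control was 725 CPM and that of heat stress 669.1 ± 85.5 CPM (SD, n = 3), a log2 difference of -0.12 with a 95% interval of -0.74 to 0.51. SOD1 overlaps SCAF4 on the opposite strand (1840 to 5800 counts, against 26341 to 39108 for SOD1), and the counting is not known to use strand.

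SOD2, the manganese dismutase of the mitochondrial matrix (chromosome 1, 7679352 to 7689560, forward strand), measured 22.3, 23.5 and 25.1 CPM in the control libraries and 29.4, 22.1 and 24.1 CPM in heat stress. The groups overlapped, with a log2 difference of 0.09 (95% interval -0.81 to 0.99). The ratio of SOD1 to SOD2 per kilobase was 15.0 to 17.5 for control, 13.9 to 14.8 after heat stress and 16.7 to 18.6 with L-Asp, so the cytosolic message exceeded the mitochondrial one more than 10-fold in every library.

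PRDX2, an abundant cytosolic peroxiredoxin (chromosome 2, 66207829 to 66212009, forward strand), gave 35124, 36750 and 36134 counts in control and 17001, 21009 and 24867 in heat stress. Error from counting reads is small at such counts, but the number of molecules behind PCR-amplified reads is not known. In CPM the libraries measured 711.2, 700.8 and 695.4 against 344.4, 409.3 and 483.7. The highest heat stress library was well under the lowest control library. The mean was 702.3 CPM in control and 412.5 ± 69.7 CPM in heat stress (SD, n = 3), a log2 fold change of -0.77 (SE 0.288, 95% interval -1.40 to -0.14, edgeR's quasi-likelihood test, unadjusted p = 0.0217, adjusted p = 1). With the 3 control libraries as separate samples its adjusted p by the same test was 0.0375, in a fit that called 1.13% of genes lower. That fit treats control libraries that are close to repeats as independent. Over all alternatives its adjusted p ranged from 0.026 to 1. DESeq2 on 7 libraries called none of the 10 genes, PRDX2 included (adjusted p = 0.655), and 0.858% of genes higher and 0.241% lower.

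PRDX1, its close relative in the cytosol (chromosome 6, 165824395 to 165861442, forward strand), stood at 37.3, 36.9 and 35.5 CPM in control and 49.8, 54.7 and 46.0 CPM in heat stress. All 3 heat stress libraries were above the control libraries. The log2 difference was 0.46 (95% interval -0.35 to 1.26) and did not pass. PRDX1 and PRDX2 therefore lay on opposite sides of control, and the ratio of PRDX2 to PRDX1 per kilobase was 25.2 to 26.0 for control, 9.18 to 14.0 after heat stress and 13.6 to 20.7 with L-Asp. The PRDX1 gene model spans 37048 bp, longer than the 12529 bp of the RefSeq gene, and overlaps AKR1A1 (75 to 610 counts) and MMACHC on the opposite strand.

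PRDX3, the peroxiredoxin of mitochondria (chromosome 14, 129079051 to 129090830, reverse strand), was scarce, at 3.75, 2.71 and 2.46 CPM in control and 5.00, 3.31 and 3.52 CPM in heat stress. The ranges overlapped and the interval of its log2 difference was wide (-2.48 to 3.31). PRDX4, the peroxiredoxin of the endoplasmic reticulum (chromosome X, 19797550 to 19819571, forward strand), measured 26.0, 24.1 and 23.6 CPM in the control libraries and 20.3, 32.5 and 30.4 CPM in heat stress, with libraries on both sides of control.

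PRDX5, found in mitochondria, peroxisomes and cytosol (chromosome 2, 7798670 to 7802952, reverse strand), measured 5.43, 7.09 and 8.91 CPM in the control libraries and 10.3, 7.99 and 3.93 CPM in heat stress. Its control libraries differed 1.64-fold from lowest to highest, the most of the 10 genes. It overlaps TRMT112 on the opposite strand, which had 15557 to 21440 counts in the libraries, far above the 202 to 507 of PRDX5. PRDX6, a peroxiredoxin that also acts on phospholipids (chromosome 9, 115857644 to 115868892, forward strand), measured 8.48, 6.54 and 6.56 CPM in the control libraries and 9.01, 5.59 and 7.31 CPM in heat stress. The log2 differences of PRDX4, PRDX5 and PRDX6 were 0.18, 0.04 and 0.03, and none passed.

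CAT, the peroxisomal catalase (chromosome 2, 26487653 to 26581452, reverse strand), measured 51.5, 57.3 and 53.7 CPM in the control libraries and 35.9, 32.0 and 105.6 CPM in heat stress. A single heat stress library, replicate 3, decided its mean: the others lay below control, and this one lay above. The log2 fold change was 0.09 (95% interval -1.22 to 1.41) with it and -0.68 without it, with an adjusted p of 0.918 by edgeR's quasi-likelihood test (0.918 to 1 over all alternatives). The same library had the highest share of mitochondrial counts of the heat stress group (14.5%). The CAT gene model spans 93800 bp, longer than the 40218 bp of the RefSeq gene. ABTB2, which overlaps it on the opposite strand, had 1272, 2217 and 3636 counts in the heat stress libraries, and CAT 1772, 1643 and 5431. The order was not shared elsewhere: the L-Asp libraries had 3698, 4005 and 4797 counts of ABTB2 and 2127, 2346 and 1254 of CAT, and the controls 3375 to 3571 and 2543 to 3006. Whether this bears on CAT was not tested.

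GPX4, the selenoprotein that reduces lipid peroxides in membranes (chromosome 2, 77320464 to 77323931, reverse strand), was the scarcest of the 10 genes in control, with 69, 100 and 72 counts. It had 263, 555 and 228 counts in heat stress. These correspond to 1.40, 1.91 and 1.39 CPM in control and 5.33, 10.8 and 4.44 CPM in heat stress, with no overlap. The mean was 4.38 times the averaged control of 1.57 CPM, at 6.86 ± 3.45 CPM (SD, n = 3). The log2 fold change was 2.13 (SE 0.882, 95% interval 0.20 to 4.07, edgeR's quasi-likelihood test, unadjusted p = 0.0338, adjusted p = 1) and 1.64 without heat stress replicate 2, the highest library. By limma on log2(FPKM + 1), a scale that understates the change of low genes, it was 1.18. With 9 separate libraries edgeR's adjusted p was 0.0338, in a fit that called 1.76% of genes higher, and over all alternatives it ranged from 0.0338 to 1.

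**Figure D2:**
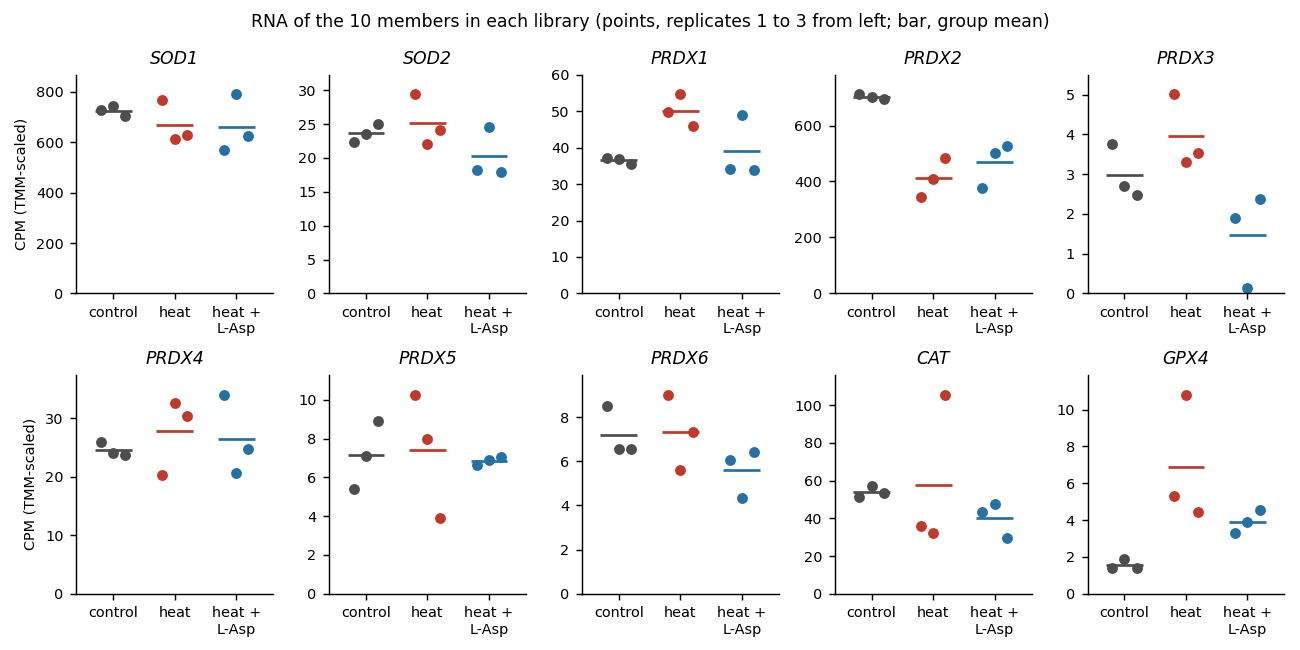
TMM-scaled CPM of each of the 10 genes in the 9 libraries, 1 panel per gene with its own axis from 0. PRDX2 lies lower in all heat stress libraries than in control, PRDX1 and GPX4 lie higher, and CAT is split by a single heat stress library at 105.6 CPM.

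L-Asp during heat, set against heat alone, asks what the compound altered. The fold changes were below 0 for 9 of the 10 genes and above 0 for PRDX2, and none passed. Of all tested genes 48.96% were above 0. Leaving out 1 library could turn the sign of SOD1, PRDX4, PRDX5 and CAT. The median log2 fold change of the 10 was -0.34, against -0.01 over all tested genes. No gene of all those tested passed (0% called higher and 0% lower, edgeR's quasi-likelihood test), and none of the 10 had an unadjusted p under 0.05, against 6.61% of tested genes. PRDX3 was the only member below heat stress in every L-Asp library, as 5.54% of tested genes were, and no member lay above in all of them, as 6.31% were. DESeq2 called 0.408% of genes higher and 0.52% lower, and none of the 10. This comparison shares its heat stress libraries with the previous one, so the directions of the 2 are not independent.

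PRDX3 measured 1.91, 0.142 and 2.37 CPM in the L-Asp libraries, against 3.31 to 5.00 in heat stress. Replicate 2 held only 7 counts of PRDX3, against 94 and 100 in the others. The log2 fold change was -1.42 (SE 0.929, 95% interval -3.46 to 0.62, adjusted p = 0.786, edgeR's quasi-likelihood test), and -0.86 without that library. The low count makes the size of this difference uncertain.

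PRDX2 measured 376.8, 501 and 527.7 CPM in the L-Asp libraries, which overlapped with heat stress. Its log2 difference from heat stress was 0.18 (95% interval -0.28 to 0.65). PRDX1 measured 34.1, 48.9 and 33.9 CPM, with a log2 difference of -0.36 (95% interval -0.92 to 0.19). GPX4 measured 3.32, 3.88 and 4.52 CPM against 4.44 to 10.8 in heat stress, so that the highest L-Asp library overlapped, with a log2 difference of -0.81 (95% interval -2.01 to 0.39). Without heat stress replicate 2 the GPX4 value was -0.32.

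SOD1 measured 570.4, 790.3 and 623.8 CPM in the L-Asp libraries, a log2 difference from heat stress of -0.02 (95% interval -0.46 to 0.43). SOD2 measured 18.2, 24.5 and 18.0 CPM, with a log2 difference of -0.32 (95% interval -0.95 to 0.32). CAT measured 43.1, 47.4 and 29.7 CPM, with -0.53, and 0.24 without heat stress replicate 3. PRDX4, PRDX5 and PRDX6 differed by -0.07, -0.11 and -0.38, and the adjusted p of the 10 genes lay at 0.786 or above (edgeR's quasi-likelihood test). PRDX5 lay within 6.65 to 7.03 CPM over the 3 L-Asp libraries, the narrowest spread of any group for that gene.

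L-Asp with heat against control uses the same averaged control as the first comparison and is given beside it for that reason. PRDX2, PRDX3, PRDX6 and CAT lay below every control library in all L-Asp libraries, as 19.6% of tested genes did, and GPX4 lay above, as 14.2% did. PRDX2 averaged 468.5 ± 80.6 CPM (SD, n = 3), a log2 fold change of -0.58 (95% interval -1.22 to 0.05, unadjusted p = 0.0691, edgeR's quasi-likelihood test), against -0.77 for heat stress without L-Asp. GPX4 averaged 3.91 ± 0.600 CPM (SD, n = 3), a log2 fold change of 1.32 (95% interval -0.52 to 3.16), against 2.13, and 0.68 by limma on log2(FPKM + 1). PRDX3 had a log2 fold change of -1.01 (95% interval -3.70 to 1.68), and -0.46 without L-Asp replicate 2, the library with 7 counts. CAT, PRDX6, SOD2 and SOD1 differed from control by -0.44, -0.36, -0.22 and -0.13, and PRDX1, PRDX4 and PRDX5 by 0.09, 0.11 and -0.07. None passed (0% of genes called in either direction, adjusted p = 1 for all 10 genes, edgeR's quasi-likelihood test), and 3.22% of all genes had an unadjusted p under 0.05, none of the 10 among them. DESeq2 called 0.384% higher and 0.161% lower, again none of the 10.

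**Figure D3:**
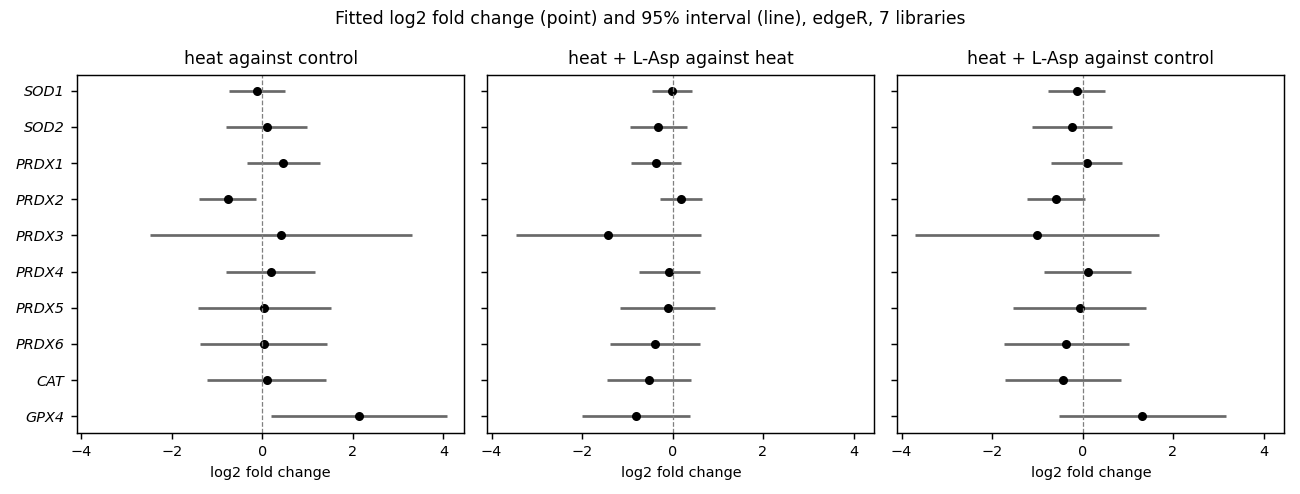
Log2 fold changes of the 10 genes with 95% intervals in each comparison, by edgeR's quasi-likelihood fit of 7 libraries. The intervals of PRDX2 and GPX4 in heat stress against control are those that leave out 0, and the intervals of PRDX3 and GPX4 are the widest.

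Enzymes that serve these scavengers were examined by lists of the thioredoxin system, glutathione synthesis and reduction, selenoprotein synthesis, peroxisomes, NADPH supply, iron and lipid peroxidation and NRF2 regulation, among others. Of 129 listed genes, 112 were in the table and 103 were tested. None was called in any of the 3 comparisons by edgeR or DESeq2 on 7 libraries. With 9 separate libraries ACSL4 and TXNDC17 were called for heat stress against control, and CHAC1 and TXNDC17 for L-Asp against control. That fit called 433 and 269 of all 15012 genes in these comparisons, and treats control libraries that are close to repeats as independent. Heat stress against control had 60 above 0 with a median log2 fold change of 0.16, L-Asp against heat stress 42 with -0.11, and L-Asp against control 57 with 0.06. An unadjusted p under 0.05 was met by 2, 6 and 2 of the 103, beside 3.86%, 6.61% and 3.22% of all tested genes. The genes named below were picked for small p, so groups without overlap are likely among them. Of all tested genes, 13.6% lay above and 19% below every control library in all heat stress libraries. With L-Asp 14.2% lay above every control library in all libraries. Against heat stress, 6.31% lay above and 5.54% below in all L-Asp libraries.

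In the thioredoxin system, which restores most peroxiredoxins, 7 of 11 genes were above 0 in heat stress. TXNDC17, a thioredoxin-like protein, measured 148.7, 144.2 and 151.1 CPM for control, 261.2, 280.5 and 239.9 CPM after heat stress and 205.6, 227.6 and 230 CPM with L-Asp. All heated libraries were above control, and the log2 fold change for heat stress was 0.82 (SE 0.273, adjusted p = 0.864, edgeR's quasi-likelihood test). TXNRD1, the cytosolic thioredoxin reductase, measured 38.6 CPM in the averaged control, 50.3 ± 20.3 CPM after heat stress and 29.9 ± 7.84 CPM (SD, n = 3) with L-Asp, with overlapping heated groups. TXNIP, the inhibitor of thioredoxin, had a log2 difference of -1.18 between L-Asp and heat stress that did not pass (adjusted p = 0.738, edgeR's quasi-likelihood test).

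Among genes of iron and lipid peroxidation, the process that GPX4 counters, 9 of 12 were above 0 in heat stress. ACSL4, which loads polyunsaturated fatty acids into membrane lipids, measured 23.1, 20.5 and 20.2 CPM for control, 49.5, 58.0 and 74.0 CPM after heat stress and 39.7, 28.0 and 18.3 CPM with L-Asp. The heat stress libraries were above all the others. Its log2 fold changes were 1.51 (SE 0.489, adjusted p = 0.838) for heat stress and -1.08 (SE 0.318, adjusted p = 0.738) for L-Asp against heat stress, by edgeR's quasi-likelihood test, and these share the heat stress libraries.

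Of glutathione-linked genes, GLRX3, a glutaredoxin, measured 4.86 to 5.50 CPM for control, 10.2 to 11.8 CPM after heat stress and 4.28 to 5.94 CPM with L-Asp. The heat stress libraries stood apart from both other groups, though the difference between L-Asp and heat stress did not pass (log2 -1.10, adjusted p = 0.738, edgeR's quasi-likelihood test). CHAC1, which degrades glutathione, measured 11.7 CPM in the averaged control, 23.9 ± 7.18 CPM after heat stress and 29.7 ± 9.70 CPM (SD, n = 3) with L-Asp. GCLC, of the first step of glutathione synthesis, measured 131 CPM in control and 91.0 ± 20.4 CPM in heat stress. GCLM, of the same list, went the other way, at 9.45 CPM in the averaged control and 18.8 ± 11.0 CPM in heat stress (SD, n = 3). Of the 8 tested genes of that list, 5 were above 0 in heat stress, with a median log2 fold change of 0.25.

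NADPH supplies the reducing power of both systems. PGD, of the pentose phosphate pathway, measured 31.5, 39.4 and 52.3 CPM in heat stress and 55.7, 68.3 and 98.99 CPM in heat with L-Asp, all above heat stress. NADK, which makes NADP, measured 44.1 to 83.5 CPM and 87.5 to 144.4 CPM in these groups. PEX26, a receptor of peroxisome import, measured 85.3 to 111 CPM and 135.1 to 249.5 CPM. None of the 3 differences passed (adjusted p = 0.738, edgeR's quasi-likelihood test). SECISBP2, which is needed to read selenocysteine codons such as that of GPX4, measured 302.2 CPM in control and 209.1 ± 32.3 CPM in heat stress (SD, n = 3), below control in all 3 libraries without passing.

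**Figure D4:**
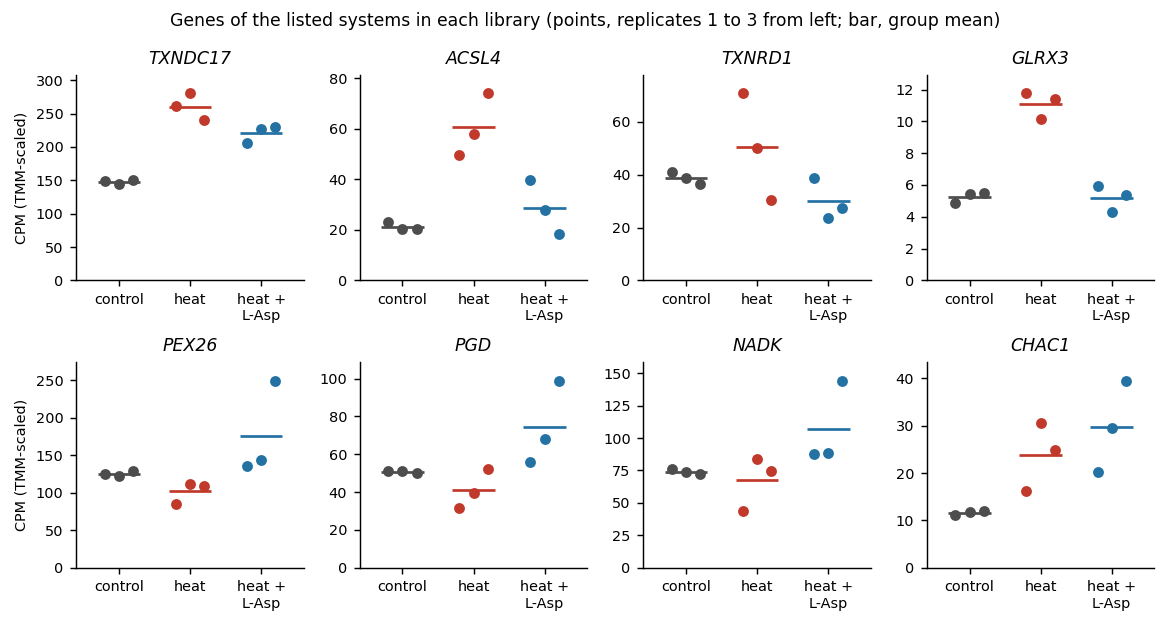
TMM-scaled CPM per library of the 8 named genes of the listed systems with an unadjusted p under 0.05 in any comparison, which therefore differ by choice. ACSL4 and GLRX3 lie highest in heat stress, TXNDC17 and CHAC1 lie above control in both heated groups, and PEX26, PGD and NADK lie highest in heat with L-Asp.

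The gene with the most similar course to each member was found by Pearson's r of log2 CPM over the 7 libraries, among about 5755 named genes of at least 10 CPM. These r values are descriptions, since the 7 points share their groups and libraries. Each member had 10 to 31 genes with an r over 0.9 (28 for PRDX2 and 27 for GPX4), so the closest is picked from many. For GPX4 the closest gene was RPL36, a ribosomal protein gene (r = 0.978), at 9.34 to 11.0 CPM for control, 17.9 to 32.2 CPM after heat stress and 16.4 to 20.2 CPM with L-Asp. For PRDX2 it was DCPS, the scavenger decapping enzyme (r = 0.981), for PRDX1 it was CMC1 (r = 0.977) and for SOD1 it was ZDHHC4 (r = 0.979). Among the 10 genes themselves the closest pairs were PRDX3 with PRDX6 (r = 0.845) and SOD1 with SOD2 (r = 0.772). PRDX2 was close to none of them, its highest r being 0.295, with CAT. PRDX4 (0.347) and PRDX5 (0.392) were little closer to any, and the members offer far fewer genes to pick from.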

How the data were processed

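The 9 libraries were prepared from full-length cDNA primed with oligo(dT) and amplified by PCR, per the labels' protocols, which describe no strand marking and no molecular identifiers, so intervals do not rest on independent molecules. Per the submitters' processing notes the tools were edgeR, DESeq2, StringTie 2.1.6, HISAT2 2.2.1 and cutadapt 1.9, with no roles, and the build is not stated there. The deposited counts per gene were used as raw counts, and 6 further per-sample columns were not used. The FPKM values computed by the authors served for transcript lengths, from their ratio to the counts, scaled on 13 mitochondrial genes, and for an alternative.

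Control counts were averaged and rounded to 1 library. Genes were filtered by filterByExpr on the 9 libraries (15012 kept), scaled by TMM and tested with edgeR 4.0.16 (glmQLFit robust, glmQLFTest; 4 residual degrees of freedom) with Benjamini-Hochberg adjustment and a threshold of 0.05. Alternatives used DESeq2 1.42.0, limma 3.58.1 on log2(FPKM + 1), other scalings and filters, a replicate block and leaving out libraries; scaling by library totals only was added after seeing the data. The members and lists were chosen with earlier results of these data known. From each list the 2 genes of smallest p per comparison with at least 5 CPM could be named, and fewer are. Ribosomal protein genes such as RPL36 have near-identical copies that may share reads, and no sequences are printed.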

Additional observations from a re-analysis of the deposited data

How the results depend on the processing

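Of 560 values of the 10 genes under 20 alternative settings, 531 kept their direction and side of the threshold. 3 newly passed, none was lost and 26 changed sign. With 9 separate libraries, heat stress against control gave 433 called genes, 2 of them members and 2 from the lists (ACSL4 and TXNDC17), L-Asp against heat stress gave 2, and L-Asp against control gave 269, with 2 from the lists (CHAC1 and TXNDC17). Deviations of same-numbered libraries correlated at -0.024 to 0.0518, and those of differently numbered ones at -0.0442 to 0.0362. Since the control libraries are close to repeats, these values cannot decide whether libraries with the same number are paired. With replicate number as a block the counts were 378 for heat stress against control and 223 for L-Asp against control. The 378 held 1 member, PRDX2, with GPX4 at an edgeR adjusted p of 0.06, and 2 from the lists. The 223 held 1 from the lists. DESeq2 called 187, 182 and 88 genes, none a member. Without a filter 9, 2 and 3 were called, and with the filter on 7 libraries 2 for L-Asp against heat stress. Leaving out 1 library gave 0 to 1, 0 to 3 and 0 to 1 genes. Scaling by library totals alone moved the median log2 fold change of all genes to 0.19 for heat stress and 0.18 for L-Asp, each against control. It turned SOD1 to 0.0671 and 0.042 and PRDX5 with L-Asp to 0.11. FPKM turned SOD1 to 0.0283 for heat stress and PRDX5 to 0.0479 for L-Asp against control. The block turned CAT to -0.013 in heat stress, and in the 6 heated libraries PRDX5 to 0.00346. Leaving out 1 library at a time changed signs for heat stress against control in SOD2 (-0.0337 to 0.178), PRDX5 (-0.27 to 0.34), PRDX6 (-0.15 to 0.19) and CAT (-0.68 to 0.39). It did so for L-Asp against heat stress in SOD1 (-0.142 to 0.0937), PRDX4 (-0.29 to 0.10), PRDX5 (-0.40 to 0.20) and CAT (-0.82 to 0.24), and for L-Asp against control in PRDX1 (-0.0929 to 0.184), PRDX4 (-0.11 to 0.27) and PRDX5 (-0.22 to 0.13). The cause was not tested. The lone averaged control limits each comparison with it, since its spread is assumed to be that of the heated groups. Counts under about 100, as for GPX4 in control and PRDX3 with L-Asp, limit the size of those differences.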
